A study of Mus musculus with 9 samples.

Results

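Nr4a1, Nr4a2 and Nr4a3 are the 3 genes of the Nr4a family of orphan nuclear receptors, and their transcripts were followed in semimature CD4 single-positive (SP4) thymocytes that did or did not meet a self-antigen. The genes were taken by symbol from the 24594 genes of the deposited table, and all 3 were among the 11569 genes with an RPKM (reads per kilobase of exon, scaled to the exonic reads of the library) of at least 1 in at least 2 of the 9 libraries. The cells carried the transgenic OT-II T cell receptor (TCR), which recognizes an ovalbumin peptide, and came from mixed bone marrow chimeras. Irradiated hosts received marrow from control OT-II donors (Nr4a1+/+ Nr4a3+/+), from OT-II donors lacking Nr4a1 and Nr4a3 (Nr4a1-/- Nr4a3-/-, double knockout, DKO) and from wild-type donors without the transgene, and thymocytes were taken after 4.7 weeks. Each sample was sorted as CD4+ CD8- CD69+ Vα2+ Vβ5+ cells of 1 donor type. The WT hosts have no ovalbumin, and by the labels they were BoyJ mice. The RIPmOVA hosts were an F1 of BoyJ and of C57BL/6 mice with the transgene Tg(Ins2-TFRC/OVA)296Wehi/WehiJ, in which the rat insulin promoter drives membrane-bound ovalbumin in pancreatic islets and also in medullary thymic epithelium. By the labels, host background and antigen thus cannot be told apart, whereas the methods of the study describe the WT hosts too as F1 mice of that cross. Control OT-II cells gave n = 2 libraries from WT hosts and n = 2 from RIPmOVA hosts, and DKO OT-II cells gave n = 3 and n = 2. Libraries of the 2 genotypes with the same number and host came from the same chimera, so that they shared a thymus. The control donors were an F1 of B6.Cg-Tg(TcraTcrb)425Cbn/J and BoyJ and the DKO donors were C57BL/6, so that donor background and genotype cannot be told apart. Host age was not given in the sources used here.

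Nr4a1 encodes Nur77, Nr4a2 encodes Nurr1 and Nr4a3 encodes Nor1. These receptors have no known physiological ligand, and their activity depends largely on how much of them a cell makes. Their genes are immediate-early genes of TCR signaling, and in the thymus Nur77 and Nor1 are known for their part in the deletion of self-reactive thymocytes. All 3 proteins bind the same DNA element, the NBRE, as monomers, and Nur77 and Nurr1, but not Nor1, can also pair with the retinoid X receptors.

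In GENCODE vM21 on GRCm38, Nr4a1 lies at chr15:101254269-101274795 on the plus strand, Nr4a2 at chr2:57106830-57124003 on the minus strand and Nr4a3 at chr4:48045153-48086447 on the plus strand. None of the 3 overlaps another annotated gene. The promoters are shown because the members moved together with self-antigen and because these windows share a feature that the choice of genes did not use. Each gene matched 1 promoter in the RefSeq table (GRCm38.p6), and the 250 bases before the start site were searched. The sequences are given 5′ to 3′ on the strand of the gene, at chr15:101266596-101266845, chr2:57124004-57124253 and chr4:48045055-48045152. The Nr4a1 window lies inside the gene span given above, before an internal start site and outside annotated exons of the gene. For Nr4a3 only the first 98 bases are printed, since the other 152 lie inside the first exon of a GENCODE transcript. Capitals mark the core of the cyclic AMP response element (CRE), TGACG, or its reverse complement, CGTCA.
Nr4a1: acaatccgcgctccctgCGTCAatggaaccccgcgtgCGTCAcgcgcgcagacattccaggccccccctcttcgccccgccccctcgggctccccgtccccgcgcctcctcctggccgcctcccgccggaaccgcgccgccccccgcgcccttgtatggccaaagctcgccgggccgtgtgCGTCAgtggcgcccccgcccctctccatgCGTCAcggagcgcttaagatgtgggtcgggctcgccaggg
Nr4a2: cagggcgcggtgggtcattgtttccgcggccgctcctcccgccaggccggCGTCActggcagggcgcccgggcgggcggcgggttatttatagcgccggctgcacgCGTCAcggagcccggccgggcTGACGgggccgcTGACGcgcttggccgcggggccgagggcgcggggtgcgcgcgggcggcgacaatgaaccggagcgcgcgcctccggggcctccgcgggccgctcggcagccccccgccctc
Nr4a3: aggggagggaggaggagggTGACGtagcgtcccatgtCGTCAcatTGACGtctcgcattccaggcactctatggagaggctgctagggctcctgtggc

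Each of the 3 windows held 4 CRE cores. In Nr4a1 they began at positions -233, -213, -69 and -40 from the start site. In Nr4a2 they began at -200, -144, -123 and -111, and in Nr4a3 at -231, -213, -205 and -147, the last of these in the unprinted stretch. Of 27025 promoters searched on both strands, 17.9% held at least 1 CRE core and 0.152%, or 41 promoters, held at least 4. The limit of 4 was set after the Nr4a counts were seen. The core is part of the full CRE, TGACGTCA, which was in none of the 3 windows and in 1.62% of all promoters. The other 31 tested genes with at least 4 cores had median log2 fold changes between hosts of -0.04 (OT-II cells) and 0.02 (DKO cells). Of these genes, 0 were called in either comparison by limma (2 and 3 had an unadjusted p under 0.05). Over all genes tested, 1.23% and 1.68% were called, so that 0 of 31 does not set these genes apart. The search for the AP-1 site TGANTCA, the NBRE AAAGGTCA, the CArG box and the NF-kB site gave 0 matches in the 3 windows, against 6.87%, 1.31%, 1.40% and 7.01% of all promoters with at least 1. Nr4a1 had 1 match to the EGR site GCGGGGGCG, which 2.56% of promoters held. Nr4a2 had 1 match each to the NFAT core GGAAA (55.6% of promoters), the TATA box TATAAA (13.0%) and the MEF2 site (3.01%), and the last 2 overlapped each other. GC content was 74.4% in Nr4a1, 80% in Nr4a2 and 63.6% in Nr4a3, against a median of 52% over all windows. These matches describe letters and not bound sites.

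The libraries held between 15520000 and 25050000 exonic reads, recovered from the RPKM values and the exon lengths. The sorted cells had the transcripts of their label: Cd4 was at 189 to 241 RPKM, Cd8a at 1.76 to 7.60 and Cd69 at 76.2 to 138 in the 9 libraries. Cd8b1, which encodes the other CD8 chain, was at 54.5 to 96.4 RPKM although the cells were sorted as CD8-. Of 13 markers of CD4 single-positive thymocytes, limma called 0 in any comparison and 2 to 8 had an unadjusted p under 0.05. Summed RPKM of the markers of other cells was low, at 2.72 to 10.5 for 5 B cell genes, 1.88 to 21.1 for 8 myeloid and dendritic genes, 2.79 to 12.1 for 7 thymic epithelial genes and 0.964 to 25.1 for 4 erythroid genes. Olfactory, vomeronasal and taste receptor genes, 1499 in all, gave a measure of reads at genes that thymocytes are not known to use. From WT hosts, their summed RPKM was 133 and 439 for OT-II cells, and 115, 165 and 453 for DKO cells. From RIPmOVA hosts, it was 74.6 and 204 for OT-II cells, and 483 and 649 for DKO cells. This background was therefore higher in both DKO than in both OT-II libraries from RIPmOVA hosts. Values of the targeted genes, Nr4a1 and Nr4a3, could not check the DKO label, since the deposited values sum all exons of a gene. For the same reason they cannot tell intact from disrupted transcripts in DKO cells. DKO here names the libraries by that label.

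The first question was how each Nr4a transcript changed when OT-II cells developed in hosts with the self-antigen. Nr4a1, Nr4a2 and Nr4a3 all rose in RIPmOVA hosts in both genotypes. Nr4a1 rose about as much in each genotype from a high level, and Nr4a2 and Nr4a3 rose by far larger ratios from levels near the limit of detection. A gene was called changed at a limma adjusted p of at most 0.05 over all genes tested together with a log2 fold change of 1 or more in size. By this rule 1.23% of genes were called between hosts in OT-II cells, 1.05% as higher and 0.173% as lower. In DKO cells 1.68% were called, 1.52% as higher and 0.156% as lower. In bulk samples, a change in RNA per cell and a change in the share of cells that express a gene cannot be told apart.

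Nr4a1, the most abundant member in every library, was at 60.7 and 86.1 RPKM in OT-II cells from WT hosts and at 260 and 229 RPKM in OT-II cells from RIPmOVA hosts. In DKO cells it was at 60.1, 80.2 and 87.7 RPKM in WT hosts and at 282 and 235 RPKM in RIPmOVA hosts. All 4 RIPmOVA libraries were above all 5 WT libraries. Hosts did not overlap for 41.6% of all genes tested in OT-II cells and for 40% in DKO cells. The mean went from 73.4 ± 17.9 (SD, n = 2) to 245 ± 21.9 RPKM (SD, n = 2) in OT-II cells, a ratio of 3.33, and from 76.0 ± 14.3 (SD, n = 3) to 258 ± 33.5 RPKM (SD, n = 2) in DKO cells, a ratio of 3.40. On the log2(RPKM + 0.5) scale the change was 1.75 (SE 0.21, limma adjusted p = 0.0035) in OT-II and 1.77 (SE 0.19, adjusted p = 0.0017) in DKO cells. Ranked by RPKM among all 24594 genes, Nr4a1 went from places 315 to 566 in WT hosts to places 26 to 47 in RIPmOVA hosts. Without replicate 1 of OT-II from RIPmOVA hosts, the Nr4a1 change in OT-II cells was 1.66 with a limma adjusted p of 0.053, which missed the threshold.

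Nr4a2 was at 0.152 and 0.123 RPKM in OT-II cells from WT hosts and at 6.54 and 3.92 RPKM in OT-II cells from RIPmOVA hosts. In DKO cells it was at 0.355, 0.319 and 0.220 RPKM in WT hosts and at 17.4 and 7.73 RPKM in RIPmOVA hosts. The WT values rested on 15 to 55 reads a library and the RIPmOVA values on 604 to 2261, and the groups did not overlap. With 15 reads, the exact 95% Poisson interval of the lower-depth OT-II library ran from 0.0851 to 0.251 RPKM, which covers counting error only. The ratio of mean RPKM between hosts was 38.0 in OT-II and 42.1 in DKO cells. The change on the log2(RPKM + 0.5) scale, which understates the change of so low a gene, was 3.13 (SE 0.36, limma adjusted p = 0.0035) in OT-II and 3.93 (SE 0.33, adjusted p = 0.00050) in DKO cells, places 20 and 8 from the highest of the 11569 genes.

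Nr4a3 was at 0.181 and 0.189 RPKM in OT-II cells from WT hosts and at 5.66 and 3.72 RPKM in OT-II cells from RIPmOVA hosts. In DKO cells it was at 0.294, 0.665 and 0.188 RPKM in WT hosts and at 16.5 and 14.1 RPKM in RIPmOVA hosts. The highest WT library, replicate 2 of DKO, was still far below the lowest RIPmOVA library. Reads numbered 31 to 148 in WT and 992 to 3734 in RIPmOVA hosts. The ratio of mean RPKM between hosts was 25.3 in OT-II and 40.1 in DKO cells. The log2(RPKM + 0.5) change was 2.90 (SE 0.28, limma adjusted p = 0.0017) in OT-II and 4.20 (SE 0.26, adjusted p = 0.00010) in DKO cells, places 24 and 6 from the highest.

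**Figure D1:**
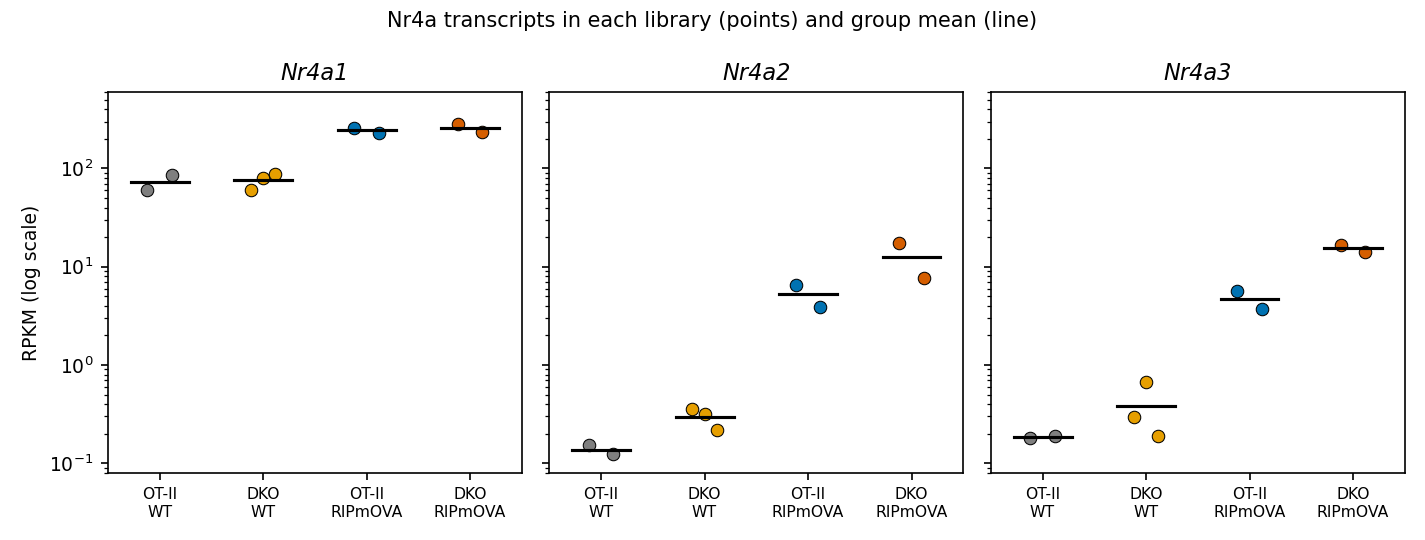
RPKM of Nr4a1, Nr4a2 and Nr4a3 (log axis) in the 9 libraries (points) by donor genotype and host, with group means as lines. Every RIPmOVA library lies above every WT library for each gene, from 60.1 to 87.7 against 229 to 282 RPKM for Nr4a1, and DKO lies above OT-II in RIPmOVA hosts for Nr4a2 and Nr4a3 only.

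Over both genotypes, an exact permutation test of host labels within genotype gave p = 0.017 (two-sided, 60 relabelings) for each member. This was the smallest p these relabelings allow. Mean differences were 1.76, 3.53 and 3.55 on the log2 scale for Nr4a1, Nr4a2 and Nr4a3. The test treated libraries as independent. Libraries of the 2 genotypes shared chimeras, and relabeling whole chimeras could not give so small a p. The host effects kept their calls with the log2 summed RPKM of the sensory receptor genes as a covariate, which gave, in the same order of genes, 1.68, 3.22 and 3.13 for OT-II cells and 1.87, 3.79 and 3.85 for DKO cells. When the fit held only the 4 OT-II libraries, the OT-II changes had limma adjusted p of 0.063, 0.054 and 0.054 and missed the threshold. The summed RPKM of 4 regulatory T cell markers also moved with host, from 5.52 and 7.80 to 24.4 and 28.6 in OT-II cells and from a range of 1.98 to 3.25 to 9.42 and 13.0 in DKO cells. Foxp3, which defines these cells, was at 0.29 and 0.49 against 1.90 and 3.31 RPKM in OT-II cells, and at no more than 0.092 RPKM in any DKO library. Il2ra, which encodes the IL-2 receptor alpha chain, and Ikzf4, which encodes Eos, were called higher with self-antigen in both genotypes, with Il2ra at a mean of 3.27 against 12.9 RPKM in OT-II and 1.27 against 6.87 in DKO cells. Myeloid and dendritic markers summed to 3.12 and 10.3 RPKM for OT-II cells in WT and to 10.3 and 21.1 in RIPmOVA hosts, and to 1.88 to 4.87 and to 4.67 and 6.48 for DKO cells. The part of these markers in the host effects was not tested.

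The second question was whether the balance between members changed. Nr4a1 made up a mean of 99.5% of the summed RPKM of the 3 genes in OT-II and 99.1% in DKO cells from WT hosts. In RIPmOVA hosts its share was 96.1% in OT-II and 90.4% in DKO cells. In DKO cells these shares count all exon reads of the targeted genes Nr4a1 and Nr4a3, from intact or disrupted transcripts. Nr4a2 and Nr4a3 together had 0.545% and 0.361% in OT-II from WT hosts, 1.07%, 1.21% and 0.463% in DKO from WT hosts, 4.48% and 3.23% in OT-II from RIPmOVA hosts, and 10.7% and 8.53% in DKO from RIPmOVA hosts. No RIPmOVA library overlapped a WT library, and the 2 genotypes did not overlap in RIPmOVA hosts. Nr4a1 exceeded Nr4a2 between 169-fold and 700-fold in WT hosts and between 16.2-fold and 58.4-fold in RIPmOVA hosts. On the log2(RPKM + 0.5) scale, the ratio of Nr4a2 to Nr4a1 was higher in RIPmOVA hosts by 1.77 and that of Nr4a3 to Nr4a1 by 1.79. The exact permutation p was 0.017 for each, the smallest these relabelings allow. Libraries of 1 chimera were again treated as independent. The size of these 2 differences depended on the pseudocount, at 2.90 and 2.82 with 0.1 and at 1.102 and 1.156 with 1. The ratio of Nr4a3 to Nr4a2 differed between hosts by 0.02 (exact permutation p = 0.90). Across these tests 12 were run in all, and the p-values are unadjusted.

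**Figure D2:**
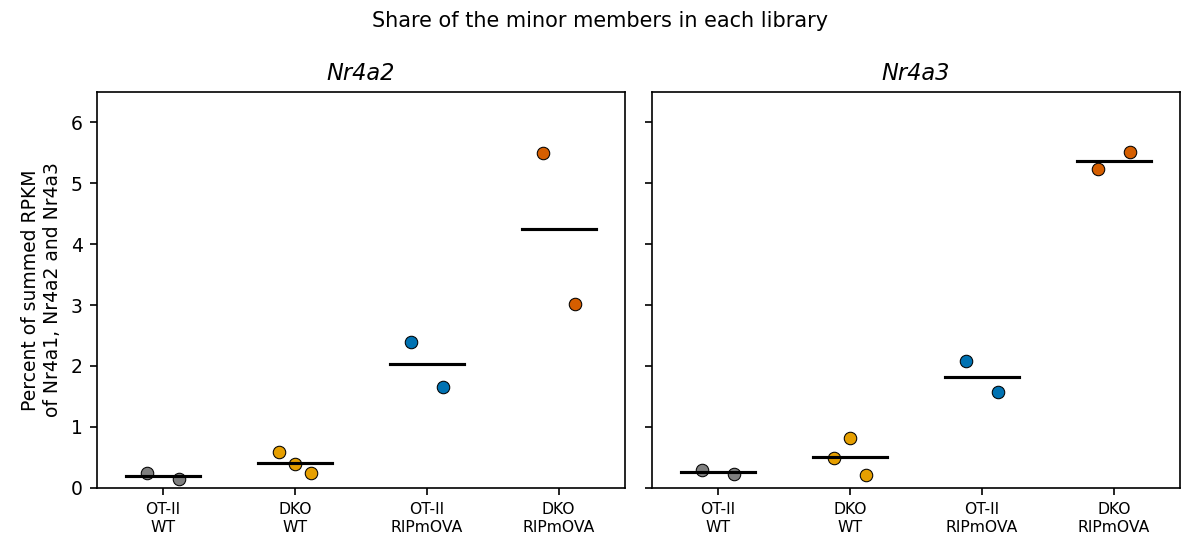
Share of Nr4a2 and Nr4a3 in the summed RPKM of the 3 Nr4a genes, in percent, for each library (points) and group mean (lines). Nr4a2 has a mean share of 0.196%, 0.409%, 2.03% and 4.25% and Nr4a3 of 0.258%, 0.506%, 1.82% and 5.37%, from left to right.

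The order of levels was Nr4a1 first in every library, and the order of Nr4a2 and Nr4a3 differed between libraries. In OT-II cells from WT hosts both Nr4a3 libraries lay above both Nr4a2 libraries, but the Poisson intervals of the genes overlapped. In the other 3 groups the libraries of the 2 genes overlapped. Within a library, the Poisson intervals were apart with Nr4a3 higher in replicate 2 of DKO from each host. Nr4a3 and Nr4a2 were there at 0.665 and 0.319 RPKM (WT) and at 14.1 and 7.73 RPKM (RIPmOVA). They were apart with Nr4a2 higher in replicate 1 of OT-II from RIPmOVA hosts, at 6.54 against 5.66 RPKM. These intervals cover counting error only. RPKM used exon lengths of 3790 bases for Nr4a1, 6363 for Nr4a2 and 11028 for Nr4a3, all longer than the longest coding transcripts in GENCODE vM21, of 2553, 3568 and 5720 bases. Per kilobase of these transcripts, the mean level with self-antigen was 363 for Nr4a1, 9.32 for Nr4a2 and 9.04 for Nr4a3 in OT-II cells, and 384, 22.4 and 29.6 in DKO cells. Nr4a1 stayed first by this measure.

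Among 48 nuclear receptor genes, the retinoid X receptors included, Nr4a1 had the highest mean RPKM in each of the 4 groups. Nr4a2 was in place 31 in OT-II and 22 in DKO cells from WT hosts and in places 7 and 5 in RIPmOVA hosts. Nr4a3 was in places 29 and 20 in WT hosts and in places 9 and 3 in RIPmOVA hosts. The 3 Nr4a genes held 46.3% and 46.7% of the summed receptor RPKM in OT-II and DKO cells from WT hosts, and 75.3% and 74.7% in RIPmOVA hosts. The next receptor in OT-II cells was Nr3c1, the glucocorticoid receptor, at 15.8 RPKM in WT and 16.0 in RIPmOVA hosts.

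The third question was whether the DKO label went with other Nr4a levels at the same host. Nr4a1 and Nr4a3 are the genes targeted in the DKO donors. Their DKO values sum all exon reads and cannot tell intact from disrupted transcripts. In RIPmOVA hosts, where 1.07% of genes were called between genotypes, 0.51% as higher and 0.562% as lower in DKO, Nr4a3 was called and the other two were not. Nr4a3 was at 14.1 and 16.5 RPKM in DKO and 3.72 and 5.66 in OT-II cells, a ratio of means of 3.27 and a log2(RPKM + 0.5) difference of 1.63 (SE 0.28, limma adjusted p = 0.024). Nr4a2 was at 7.73 and 17.4 RPKM in DKO and 3.92 and 6.54 in OT-II cells, a ratio of 2.40 and a difference of 1.12 (95% interval 0.31 to 1.93, adjusted p = 0.13). Without replicate 1 of DKO the Nr4a2 difference was 0.56, and without replicate 2 of DKO it was 1.68. Nr4a1 overlapped between genotypes, with a difference of 0.08 (95% interval -0.39 to 0.54, adjusted p = 0.86). The genotypes did not overlap for Nr4a2 and Nr4a3, which held for 59% of all genes tested in this comparison.

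Without any 1 of the 4 libraries compared, the Nr4a3 difference stayed positive but missed the threshold. Each such fit leaves 1 library in a group, so that the lost call does not show a dependence on that library. The difference was 1.91 without replicate 1 and 1.36 without replicate 2 of OT-II. It was 1.52 without replicate 1 and 1.74 without replicate 2 of DKO. With the sensory receptor background as a covariate it was 1.11 (adjusted p = 0.30), and this background was itself higher in both DKO libraries. Thymic epithelial markers summed to 8.45 and 12.1 RPKM in DKO and 5.10 and 7.20 in OT-II cells from RIPmOVA hosts. Of the 7, 5 were under 1 RPKM in every library. Epcam, the 1 gene of this list tested, was at means of 7.99 and 5.45 RPKM in these groups. It was called higher in RIPmOVA than in WT hosts in DKO cells (1.47, SE 0.24, limma adjusted p = 0.013). Regulatory T cell markers summed to 9.42 and 13.0 RPKM in DKO and 24.4 and 28.6 in OT-II cells in these hosts, and myeloid and dendritic markers to 4.67 and 6.48 against 10.3 and 21.1. The part of these markers in the genotype difference was not tested.

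In WT hosts, where 0.0605% of genes were called between genotypes (7.89% had an unadjusted p under 0.05), limma called 0 of the 3 Nr4a genes, and 0 of the 3 had an unadjusted p under 0.05. The difference of DKO from OT-II was 0.05 for Nr4a1 (95% interval -0.37 to 0.48), 0.32 for Nr4a2 (-0.41 to 1.06) and 0.33 for Nr4a3 (-0.25 to 0.91) on the log2(RPKM + 0.5) scale. Nr4a2 did not overlap between genotypes, at 0.123 and 0.152 against 0.220 to 0.355 RPKM, which held for 20.8% of genes. Nr4a1 and Nr4a3 overlapped. Over both hosts, the exact permutation test of genotype labels gave p = 0.033 for Nr4a2 (mean log2 difference 0.72), p = 0.050 for Nr4a3 (0.98) and p = 0.63 for Nr4a1 (0.06), unadjusted. These relabelings ignored the pairing of libraries by chimera. Swapping labels only within pairs could not give p as small as 0.033 or 0.050.

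The genotypes were not shown to differ in their host effect. The interaction was 0.02 for Nr4a1 (95% interval -0.60 to 0.65), 0.80 for Nr4a2 (-0.29 to 1.89) and 1.30 for Nr4a3 (0.44 to 2.17), with limma adjusted p of 0.98, 0.58 and 0.46. Without 1 library the interaction ranged from 0.24 to 1.36 for Nr4a2 and from 1.03 to 1.58 for Nr4a3, and with the sensory receptor covariate it was 0.72 for Nr4a3. Nr4a3 alone had an unadjusted p under 0.05, of 0.0077, as did 9.32% of all genes, while 0.0173% were called.

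**Figure D3:**
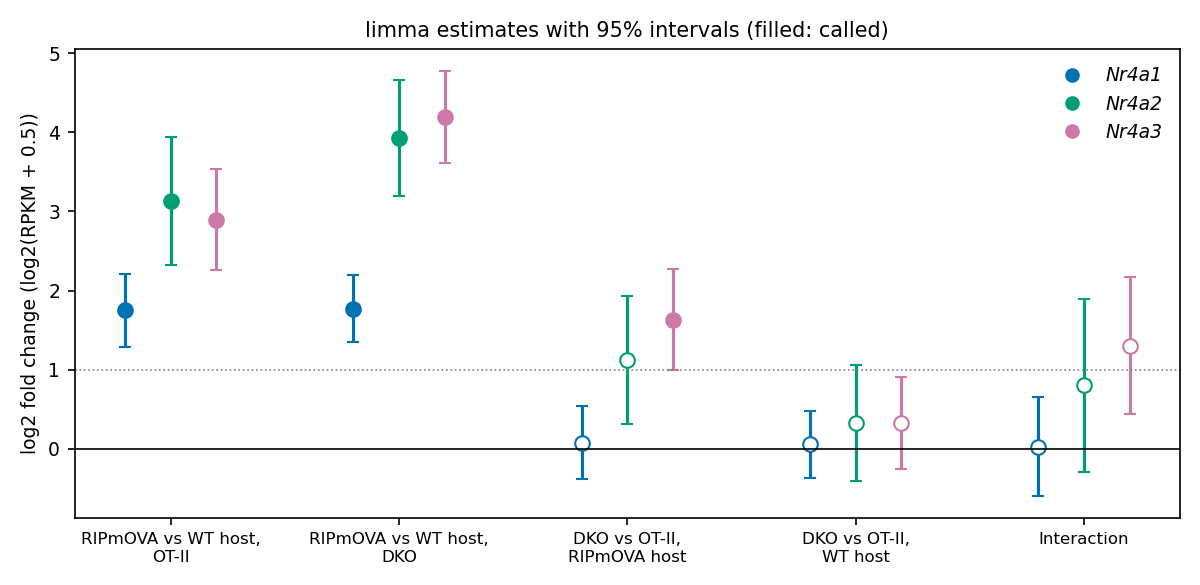
limma log2 fold changes of the 3 genes (points, filled where called) with 95% intervals in the 5 comparisons, on the log2(RPKM + 0.5) scale. Host effects lie between 1.75 and 4.20, and among the genotype effects and interactions the filled point is Nr4a3 in RIPmOVA hosts at 1.63.

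Genes were ranked by how closely their profile over the 9 libraries matched each member, by the root mean square difference of log2(RPKM + 0.5) after centring each gene on its own mean. Nr4a2 and Nr4a3 were each the closest of 11568 other genes to the other, at 0.32. This place was the same with a pseudocount of 0.1 and with median-of-ratios scaling, and was the second with a pseudocount of 1. Next to Nr4a2 came Nt5e, which encodes the ectoenzyme CD73, at 0.41, Endod1 at 0.43, Tbx21, which encodes the transcription factor T-bet, at 0.46 and Tagap, a T cell GTPase-activating protein, at 0.52. Next to Nr4a3 came Tagap at 0.54, Endod1 at 0.58, the transcription factor gene Bhlhe40 at 0.61 and Tbx21 at 0.61. Nr4a1 had other neighbors, with the prion protein gene Prnp at 0.21, the NF-kB subunit gene Nfkb2 at 0.26, the lymphotoxin gene Lta at 0.29, the cytokine gene Lif at 0.30 and the transcription factor gene Irf8 at 0.30. Nr4a2 stood in place 8769 and Nr4a3 in place 10037 of likeness to Nr4a1. These places moved with the pseudocount, to 453 and 1082 at 1 and to 11154 and 11176 at 0.1. The measure takes in the size of a change as well as its shape, and the profiles share the same libraries.

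**Figure D4:**
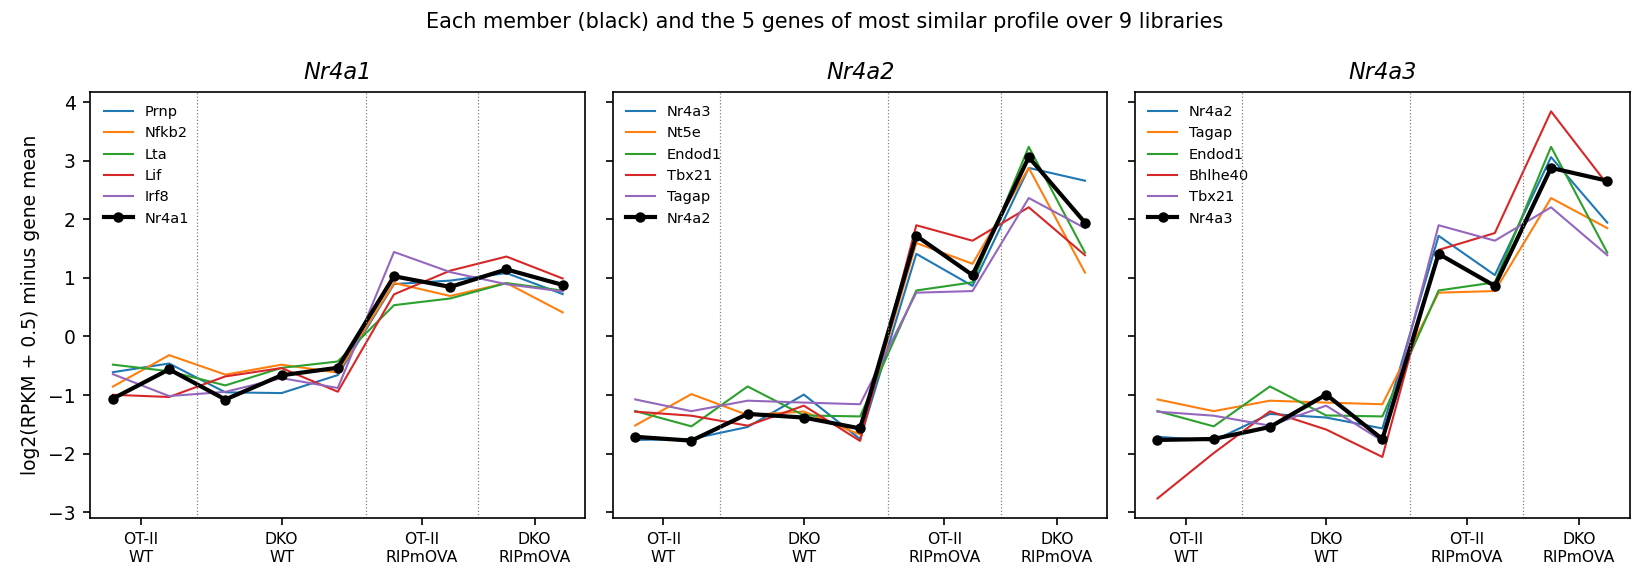
Centred log2(RPKM + 0.5) over the 9 libraries for each Nr4a gene (black) and the 5 genes with the most similar profile (colors). Among RIPmOVA libraries, DKO lies higher than OT-II for Nr4a2 and Nr4a3, and the 2 genotypes overlap for Nr4a1.

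The Nr4a genes belong to the early response to TCR signals, so 30 other genes of that response were read beside them, 27 of which were tested. In OT-II cells 7 were called higher and 0 lower in RIPmOVA hosts, and in DKO cells 10 were called higher and 0 lower. The median log2 fold change of the 27 was 0.47 in OT-II and 0.71 in DKO cells, against -0.02 and 0.03 over all genes. In OT-II cells the highest were Tnfrsf9, which encodes the costimulatory receptor 4-1BB, at 4.28 (SE 0.34), Bhlhe40 at 4.0 (SE 0.42) and Tnfrsf4, which encodes OX40, at 2.44 (SE 0.23). The lowest of those called were the phosphatase gene Dusp5 at 1.38 (SE 0.18), the NF-kB inhibitor gene Nfkbid at 1.06 (SE 0.09) and the NF-kB feedback gene Tnfaip3 at 1.05 (SE 0.17). In DKO cells the highest were Bhlhe40 at 4.86 (SE 0.38), Tnfrsf4 at 3.43 (SE 0.21) and Tnfrsf9 at 2.82 (SE 0.31), and the lowest of the 10 called were Tnfaip3 at 1.04, the cyclic AMP response gene Crem at 1.06 and Dusp5 at 1.091. Nr4a2 and Nr4a3 lay among these highest genes in both genotypes.

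Of other immediate-early genes, Fosl2 was called in both genotypes, at 1.83 (limma adjusted p = 0.020) in OT-II and 2.40 (adjusted p = 0.0022) in DKO cells, and Egr1, Egr2 and Junb were called in neither. Egr1 was at a mean of 81.5 RPKM in OT-II from WT hosts and 80.6 from RIPmOVA hosts, and Egr2 at 37.0 and 33.8. Junb was at 108 and 95.4 RPKM in the same groups. Their log2 fold changes between hosts in OT-II cells were -0.02 (SE 0.14), -0.13 (SE 0.08) and -0.16 (SE 0.22), and in DKO cells they were 0.28 (SE 0.13), 0.35 (SE 0.08) and 0.35 (SE 0.20). Egr2 in DKO cells had a limma adjusted p of 0.043 but lay under the fold limit. These genes were named after their values were seen. Fos was called in DKO cells at 1.86 (SE 0.23, limma adjusted p = 0.0034) and was at 0.80 (SE 0.25, adjusted p = 0.18) in OT-II cells.

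**Figure D5:**
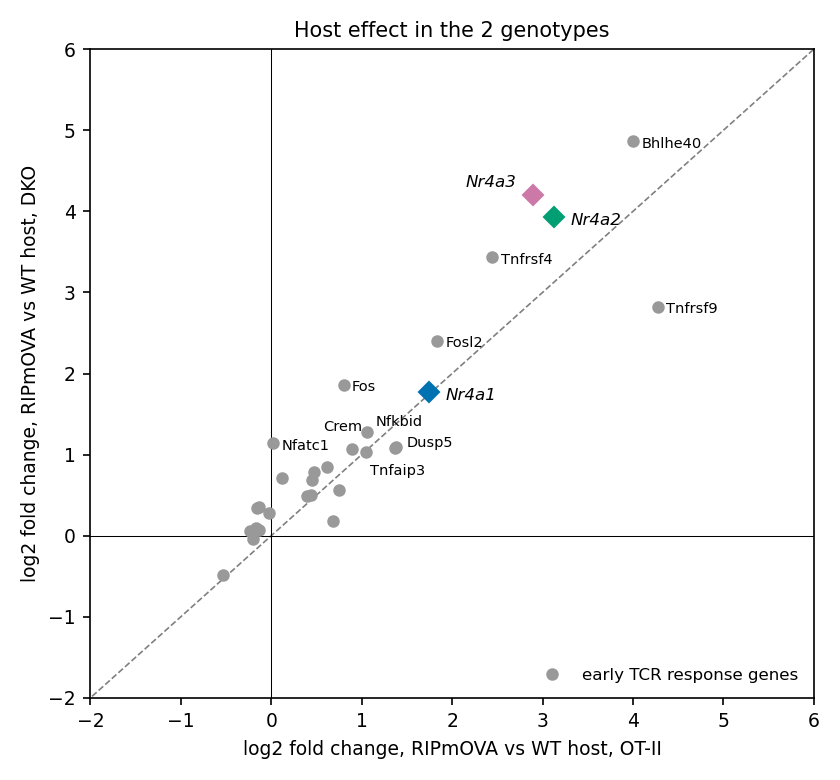
log2 fold change between RIPmOVA and WT hosts in OT-II (horizontal) and DKO cells (vertical) for 27 early TCR response genes (grey, named where called in DKO) and the 3 Nr4a genes (diamonds). The dashed line marks equal change, Nr4a1 lies on it at 1.75 and 1.77, and Nr4a3 lies at 2.90 and 4.20.

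Factors that act on Nr4a transcription were set against the shares of all genes called. Between hosts these were 1.23% in OT-II and 1.68% in DKO cells. Between genotypes they were 1.07% in RIPmOVA and 0.0605% in WT hosts. At such shares, counts of 0 or 1 in so short a list do not set it apart from other genes. Of 15 tested upstream regulators, which included NFAT, MEF2 and CREB factors with their kinases and coactivators, limma called 0 between hosts in OT-II cells (1 had an unadjusted p under 0.05) and 1 in DKO cells (7 had). That 1 was Nfatc1, which differed between hosts by 1.14 on the log2 scale (SE 0.14, limma adjusted p = 0.0032). It was also the 1 regulator called between genotypes in RIPmOVA hosts, at 67.7 in DKO against 30.3 RPKM in OT-II cells (1.12, SE 0.15, adjusted p = 0.0084). In WT hosts 0 were called and 0 had an unadjusted p under 0.05. Creb1, whose product binds the CRE, was at 11.7 and 13.2 RPKM in OT-II and 11.04 and 15.5 in DKO cells from WT and RIPmOVA hosts. Of 12 tested dimer partners and cofactors, limma called 0 in any comparison, and at most 2 had an unadjusted p under 0.05. Rxrb, a partner of Nur77 and Nurr1, was at 10.7 to 13.9 and Rxra at 0.656 to 2.96 RPKM as group means.

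Of 13 tested nuclear receptors outside the family, 1 was called. Rarg, a retinoic acid receptor gene, went from 0.739 to 3.16 RPKM between hosts in DKO cells (1.58, SE 0.23, limma adjusted p = 0.0074) and was at 0.961 and 1.19 in OT-II cells. Among the nuclear receptor genes tested, those called between hosts were the 3 Nr4a genes in both genotypes and Rarg in DKO cells. Over all genes tested, 1.68% were called between hosts in DKO cells. Without the Nr4a genes and the retinoid X receptors, 42 receptors were listed, and 28 of them were under 1 RPKM in every library.

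Of 17 tested genes that the study discussed in connection with Nr4a, 12 were called higher in RIPmOVA hosts in OT-II and 10 in DKO cells. Between genotypes in RIPmOVA hosts 0 were called higher and 10 lower in DKO cells, the opposite direction to Nr4a3. The list was put together here from the text of the study, which does not treat all of these genes as dependent on Nr4a1 and Nr4a3, and with results of these samples known, so that its direction is not independent evidence. Between hosts in OT-II cells, the highest log2 fold changes were those of Lad1 at 5.91, the relaxin gene Rln3 at 4.64 and Tnfrsf9 at 4.28, and the lowest called were Acoxl at 1.21, Chchd10 at 1.32 and Ikzf4 at 1.37. In DKO cells the highest were the stress gene Gadd45b at 4.31, Lad1 at 3.54 and Ikzf2, which encodes Helios, at 3.46, and the lowest called were Acoxl at 1.01, Arhgap20 at 1.27 and Ikzf4 at 1.47. Between genotypes in RIPmOVA hosts, Rln3 at -4.85, Tnfrsf9 at -3.49 and Arhgap20 at -3.36 differed most, and Acoxl at -1.59, Bcl2l11 at -2.24 and Foxp3 at -2.37 differed least of the 10 called. Lad1, which encodes the anchoring filament protein ladinin, was at 0.189 RPKM in OT-II cells from WT and 40.8 from RIPmOVA hosts, and at 0.0887 and 6.63 in DKO cells. Bcl2l11, which encodes the pro-apoptotic protein BIM, was at 6.59 RPKM in OT-II cells from WT and 33.2 from RIPmOVA hosts. In DKO cells it was at 1.62 and 6.72 RPKM. It was called between hosts in both genotypes, at 2.25 in OT-II and 1.76 in DKO cells (interaction -0.48, limma adjusted p = 0.55). In WT hosts 2 of the 17 were called lower in DKO cells, Itih5 and Bcl2l11, the latter at -1.76 (limma adjusted p = 0.0058). Gadd45b was at 47.1 RPKM in OT-II and 43.3 in DKO cells from RIPmOVA hosts, a log2 difference of -0.13 (SE 0.19, limma adjusted p = 0.72).

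Of the 12 tested genes nearest to the members, 2 on each side of each gene, 2 were called and both lay upstream of Nr4a1. Grasp, which encodes the scaffold protein tamalin, ends 21.1 kb from Nr4a1 and was at a mean of 1.35 RPKM in OT-II cells from WT and 4.71 from RIPmOVA hosts, and at 1.57 and 13.0 in DKO cells. Its log2 fold change between hosts was 2.65 (SE 0.29, limma adjusted p = 0.0019) in DKO and 1.48 (SE 0.32, adjusted p = 0.056) in OT-II cells. A330009N23Rik overlaps Grasp and was called in DKO cells as well (1.74, SE 0.31, adjusted p = 0.018), and reads of the 2 may be shared. Atg101, an autophagy gene 9.51 kb on the other side of Nr4a1, was at 24.5 to 26.5 RPKM in the 4 groups. Genes that failed the RPKM filter were passed over, so that some of the nearest tested genes lay far away. For Nr4a2 these were Arl6ip6 (3888 kb), Mir195b (321 kb), 4930555B11Rik (57.8 kb) and Gpd2 (114 kb). For Nr4a3 they were Alg2 (571 kb), Sec61b (562 kb), Stx17 (38.5 kb) and Erp44 (104 kb). Of each 4, limma called 0 in any of the 4 comparisons of groups, and at most 1 had an unadjusted p under 0.05.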

How the data were processed

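Libraries were made with SMART-seq and Nextera XT kits. Per the paper's methods, the authors mapped reads to mm10 with STAR and GENCODE vM17, removed PCR duplicates, summed reads over the exons of each Entrez gene and deposited them as RPKM, rounded to 3 decimals. Version numbers of STAR were not given in the sources used here.

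From the deposited RPKM, read totals were recovered as the depth at which all values checked lay within 0.1 of a whole read. The 11569 genes with an RPKM of 1 or more in 2 or more libraries were fitted as log2(RPKM + 0.5) with limma 3.58.1 (R 4.3.3; group means, all 9 libraries, intensity trend), with Benjamini-Hochberg adjustment over all of them. The fit was tested on simulated data. Exact permutation tests used numpy 2.4.6, and Poisson intervals used scipy 1.17.1. Replicates are libraries of separate chimeras. Libraries of the 2 genotypes from 1 chimera were paired by the labels. Their deviations from group means correlated at 0.0059 and -0.24 in WT and -0.079 in RIPmOVA hosts. In a group of 2 libraries the deviations mirror each other, so these values cannot show whether the chimera mattered. The main fit did not use the pairing. Promoters and gene neighbors came from RefSeq, to which 24570 of 24594 genes matched. Genes named are the 3 members, the 5 most alike, the 3 highest and 3 lowest called of a list in a comparison of groups, and 2 neighbors on each side; others are context. The members and lists were chosen with earlier results of these data known.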

Additional observations from a re-analysis of the deposited data

How the results depend on the processing

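Host effects on the 3 Nr4a genes were positive under every alternative run, and in DKO cells each kept its call. In OT-II cells, leaving out the DKO libraries gave 1.75 for Nr4a1, 3.13 for Nr4a2 and 2.90 for Nr4a3, at adjusted p of 0.063, 0.054 and 0.054 with fewer samples behind the spread. A voom fit to recovered reads, added after seeing the data, gave 5.14 for Nr4a2 (adjusted p = 0.13); the cause was not tested. Leaving out 1 library at a time gave host effects in OT-II cells of 1.498 to 2.00 for Nr4a1.

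The Nr4a3 difference between genotypes in RIPmOVA hosts missed the threshold with a pseudocount of 0.1 (1.72, adjusted p = 0.090), a filter at an RPKM of 5 (1.63, adjusted p = 0.077) and the sensory receptor covariate (1.11, adjusted p = 0.30), and ranged from 1.36 to 1.91 without 1 library; the cause was not tested. With the replicate block of the chimera it was 1.63 (adjusted p = 0.015), and with the chimera as fixed terms 1.63 (adjusted p = 0.041). The block changed no other call of the 3 genes.

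Effects of Nr4a1 that were near 0 changed sign. Median-of-ratios scaling moved the median of all genes between genotypes in RIPmOVA hosts from 0.04 to -0.17. This scaling moved the median from 0.03 to -0.13 between hosts in DKO cells and from 0.03 to -0.19 in the interaction. The scaling gave Nr4a1 -0.16 between genotypes in RIPmOVA hosts, -0.0512 over both hosts and -0.21 in the interaction. It gave Nr4a2 0.611 over both hosts, which passed when the 12 permutation tests were adjusted together, as the reported value did not. Those tests ignored the pairing of libraries by chimera. The Nr4a1 interaction was -0.0216 with quantile normalization, and its genotype effect in WT hosts was -0.0586 with chimeras as fixed terms. Without 1 library, Nr4a1 ranged from -0.0566 to 0.21 and from -0.20 to 0.30 between genotypes in RIPmOVA and WT hosts and from -0.23 to 0.27 in the interaction. The host effect on the ratio of Nr4a3 to Nr4a2 was -0.089 with a pseudocount of 0.1. Genes called numbered 31 to 164 between hosts in OT-II cells (142 as reported), 90 to 238 in DKO cells (194), 20 to 220 between genotypes in RIPmOVA hosts (124), 2 to 18 in WT hosts (7) and 0 to 8 in the interaction (2), and without 1 library 50 to 296, 98 to 259, 21 to 217, 5 to 100 and 0 to 159. In WT hosts, 15 to 148 reads a library limit Nr4a2 and Nr4a3.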
